A study of Mus musculus with 24 samples.

Results

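The comparison covered livers of male C57BL/6N mice that had been pair-fed without ethanol for 8 weeks (4 samples) or for 10 days (3 samples). These 7 samples were taken by their titles from a series of 24 liver samples in 6 groups, in which the 4 other groups received ethanol. Pair feeding gives control mice the amount that the ethanol-fed mice eat, so the pair-fed groups served as the controls of the ethanol groups at each length of feeding. The labels gave no age of the mice, no hour of sampling and no fasting state, and they did not say that replicates came from separate mice, so the p-values reflect no more than the spread among the samples at hand, which may be technical.

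RNA of each liver was labelled with the dye Cy5 and hybridised together with a Cy3-labelled reference RNA on 1 Agilent 2-colour array. The labels name the reference as assorted mouse total RNA, while other fields of the same channel name liver, so its makeup is uncertain. All 8-week arrays were read in 1 scan and all 10-day arrays in another scan, and the groups shared no slide. Length of feeding, scan and slide therefore cannot be told apart. Each gene was for this reason read in 3 ways, as the log2 ratio of Cy5 over Cy3, as the log2 Cy5 signal of the liver alone and as the log2 Cy3 signal of the reference alone.

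The liver turns surplus dietary carbohydrate into fat through glycolysis and de novo lipogenesis, a pathway that insulin and glucose raise through the transcription factors SREBP-1c and ChREBP. Between meals the liver burns fatty acids instead, under the nuclear receptor PPAR-alpha, whose targets include the Cyp4a fatty acid hydroxylases.

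On the 7 arrays, the median spot signal was 121 to 165 in Cy5 and 184.5 to 239 in Cy3, and 72.4% to 82% of the spots were well above background in Cy5. No spot of the 7 arrays was saturated. The log2 ratios of 8-week arrays correlated with each other at r of 0.618 to 0.824, those of 10-day arrays at 0.721 to 0.747, and those of arrays of different groups at 0.412 to 0.653, across genes. All 11 hepatocyte markers that could be tested were well above background on all 7 arrays, and none of them passed the test in the ratio (1 higher and 1 lower at an unadjusted p under 0.05 in limma's test, which 15.5% of all genes passed).

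Of 15545 genes tested, 240 (1.54%) differed in the ratio between 8 weeks and 10 days at an adjusted p under 0.05 (limma, Benjamini-Hochberg adjustment), 165 higher (1.06%) and 75 lower (0.482%) at 8 weeks. Counts of called list members below are to be read against these shares. At least 2-fold differences made up 35 of the higher and 5 of the lower genes. When each array was centred on its median, the split was 227 higher and 7 lower among 234 genes, of which 145 were called in both ways, and the median difference over all genes moved from 0.0032 to 0.092. The arrays of the groups did not overlap for 2573 genes (16.6%). At an unadjusted p under 0.05 stood 2415 genes (15.5%), 1357 higher (8.73%) and 1058 lower (6.81%), and the counts of list members at that level are to be read against these shares. The count of called genes was 55 without 8-week replicate 2, 81 without 8-week replicate 3 and 420 without 8-week replicate 4. It was 59 without 10-day replicate 1, 22 without 10-day replicate 2 and 116 without 10-day replicate 3. Without replicate 1 of the ethanol group with 1 binge at 8 weeks, which enters only through the shared estimate of spread, 2.46% of genes were called. Of the 240 genes, 10 kept their call when each of the 7 pair-fed arrays was left out in turn, 9 higher and 1 lower.

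The reference channel differed between the groups as well. In Cy5 alone, 1502 genes (9.66%) were called, 1151 higher (7.4%) and 351 lower (2.26%) at 8 weeks. In Cy3 alone 976 genes (6.28%) were called, 808 higher (5.2%) and 168 lower (1.08%) on the 8-week arrays. Counts of list members called in a single channel are to be read against the shares of that channel. A fit of the 2 pair-fed groups alone called 611 genes in Cy5 and 52 in Cy3. The Cy5 count was 929 without 8-week replicate 1 and 878 without 10-day replicate 2, and the Cy3 count was 612 and 506 without 8-week replicates 1 and 4 and 496 and 411 without 10-day replicates 2 and 3. Across all genes, which are not independent replicates, the difference in Cy5 correlated with the difference in Cy3 at r = 0.80, while the difference in the ratio correlated with that in Cy5 at 0.66 and with that in Cy3 at 0.085. Of the 240 genes, 175 (1.13% of all genes) were called in Cy5 in the same direction and 65 were not called there, and 63 were called in Cy3 in the same direction. The remaining filter, a call in the ratio and in Cy5 in the same direction with no call in Cy3, left 112 genes (0.72%), with 84 higher (0.54%) and 28 lower (0.18%). Under median centring of the arrays, 71 of the 84 and 3 of the 28 stayed called in the ratio. The count of 112 was 23, 39 and 244 without 8-week replicates 2, 3 and 4, and 25 and 12 without 10-day replicates 1 and 2. What made the reference differ between the scans was not tested.

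**Figure D1:**
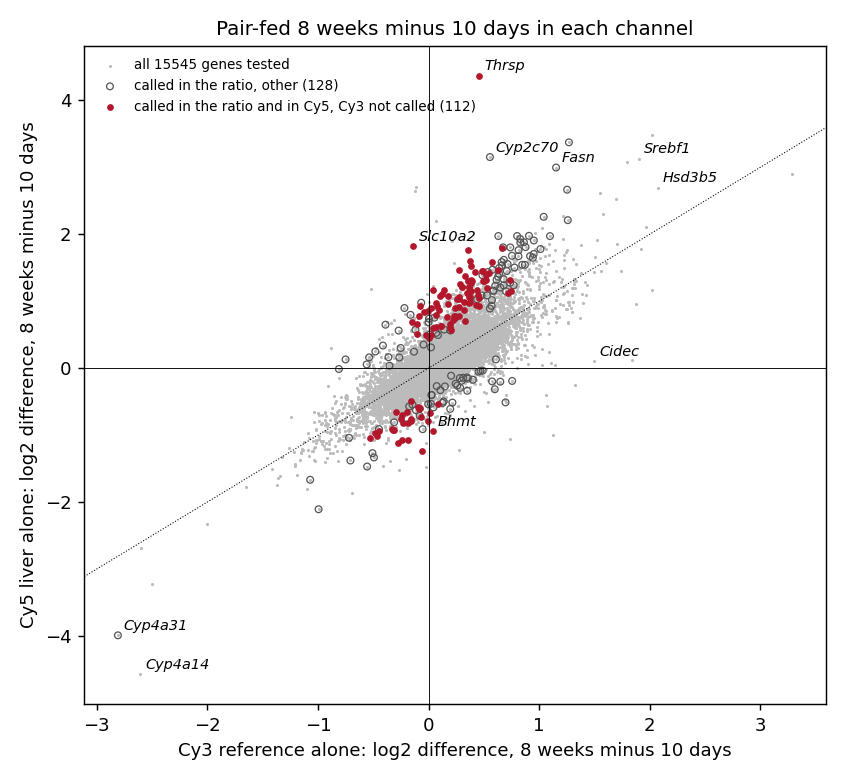
Difference between 8-week and 10-day pair-fed livers (log2, 8 weeks minus 10 days) in the Cy3 reference alone (x axis) and in the Cy5 liver channel alone (y axis) for all 15545 genes, with the dotted line at equal differences. Filled points are the 112 genes called in the ratio and in Cy5 but not in Cy3, and open circles are the other genes called in the ratio; Thrsp lies highest, and Cyp4a31 and Cyp4a14 lie far down in both channels.

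Genes of glucose use and fatty acid synthesis included the gene with the largest rise among the 84. Of 17 listed genes, 11 could be tested, and 2 of them rose, Thrsp and Fasn, with none falling (18.2% against 1.54% of all genes). The median difference of the 11 genes was 0.82 in the ratio, against 0.0032 for all genes, and the mean ratio of the list was -0.078 to 0.21 on the 8-week arrays and -0.99 to -0.53 on the 10-day arrays. The list also moved in the reference, with 6 genes higher in Cy5 alone, 6 higher in Cy3 alone and a median Cy3 difference of 0.96.

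Thrsp encodes Spot 14, a nuclear protein that promotes lipogenesis and that thyroid hormone and carbohydrate induce. Its log2 ratio was 0.30 and -0.003 on the 2 8-week arrays that measured it and -3.77, -4.36 and -2.19 on the 10-day arrays. All 10-day arrays lay far below both 8-week arrays. Thrsp was 3.59 ± 0.42 (SE) higher on the log2 scale, a 12-fold difference (adjusted p = 0.00138). Its log2 signal in Cy5 alone was 16.08 and 16.02 at 8 weeks and 11.38, 10.88 and 12.78 at 10 days, whereas in Cy3 it ran from 15.25 to 15.99 over the same 5 arrays. The difference was 4.37 in Cy5 (adjusted p = 1.16e-05) and 0.46 in Cy3 (adjusted p = 0.18). Thrsp kept its call without each 10-day array in turn. Neither of the 2 8-week arrays that measured it could be left out, so dependence on these was not tested. With the marked spots kept, Thrsp was 3.70 higher (adjusted p = 3.85e-05).

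Fasn encodes fatty acid synthase, which builds palmitate. Its log2 ratio was 0.89, 0.67, -0.16 and -0.09 at 8 weeks and -1.94, -2.07 and -0.73 at 10 days, again without overlap. The difference was 1.91 ± 0.44 (SE), or 3.75-fold (adjusted p = 0.0311), with 3.00 in Cy5 and 1.15 in Cy3 (adjusted p = 0.000318). The call was lost without 8-week replicate 1, 2 or 3 and without 10-day replicate 1 or 2, with adjusted p from 0.0501 to 0.156.

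Srebf1, the gene of SREBP-1c, missed the threshold. Its ratio was 0.88, 0.78, 0.46 and 0.58 at 8 weeks and -0.64, -1.39 and -0.04 at 10 days, so the arrays did not overlap. The difference was 1.36 ± 0.38 (SE; adjusted p = 0.0715, but 0.0341 in the fit of the 2 pair-fed groups alone). In Cy5 it was 3.13 and in Cy3 1.90 (adjusted p = 1.05e-06), which left the ratio with the smaller remainder. Me1, malic enzyme, which supplies NADPH for lipogenesis, was at 1.096 in the ratio (adjusted p = 0.329). The fit of the 2 pair-fed groups alone called Me1 as well (adjusted p = 0.022).

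The 300-base windows around the annotated start sites of lipid synthesis genes that rose are shown to give the sequence in front of them. They come from RefSeq (GRCm38.p6), run from 250 bases before to 50 after the start and are written in the sense of the gene. Windows were in the table for 34 of 38 genes looked up. The windows of Thrsp (chr7:97417501-97417800, minus strand), Fasn (chr11:120824498-120824797, minus strand) and the second of 3 windows of Dhcr7 (chr7:143823149-143823448, plus strand) were:
Thrsp: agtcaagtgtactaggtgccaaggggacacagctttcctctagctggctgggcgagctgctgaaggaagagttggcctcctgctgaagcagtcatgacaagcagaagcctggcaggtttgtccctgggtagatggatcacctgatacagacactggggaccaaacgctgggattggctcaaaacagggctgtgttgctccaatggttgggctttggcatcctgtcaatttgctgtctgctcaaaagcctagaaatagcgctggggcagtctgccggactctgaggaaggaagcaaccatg
Fasn: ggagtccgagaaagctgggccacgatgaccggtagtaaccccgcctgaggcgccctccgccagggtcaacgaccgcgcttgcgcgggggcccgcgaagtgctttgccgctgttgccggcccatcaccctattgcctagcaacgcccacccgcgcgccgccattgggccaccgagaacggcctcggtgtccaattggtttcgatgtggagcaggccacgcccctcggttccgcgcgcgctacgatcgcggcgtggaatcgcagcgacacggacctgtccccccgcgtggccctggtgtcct
Dhcr7: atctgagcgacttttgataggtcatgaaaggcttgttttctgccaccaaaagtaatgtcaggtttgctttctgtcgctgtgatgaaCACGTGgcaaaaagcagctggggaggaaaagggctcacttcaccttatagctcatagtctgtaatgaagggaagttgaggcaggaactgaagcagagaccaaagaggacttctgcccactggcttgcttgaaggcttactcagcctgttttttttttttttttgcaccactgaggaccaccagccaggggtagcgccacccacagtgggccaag

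Both strands were searched for 5 motifs. These were the E-box CACGTG (in 7.15% of all 32851 windows), the sterol response element of the LDL receptor gene (0.0913%), the D-box TTACGTAA or TTATGTAA (1.06%), the cAMP response element TGACGTCA (1.79%) and the heat shock element GAANNTTC (7.86%). Capitals mark a match. The only match in the 3 windows was an E-box in the second window of Dhcr7, 164 bases before the start site, and the other windows of Dhcr7 held none. Among the other genes looked up, windows of Ubfd1 and Reln also held an E-box. Windows of Gstm6, Il1f5, Knop1, Ptpre and Tap1 held a heat shock element. A match says only that these letters are present.

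Of the cholesterol list, 20 of 22 genes were tested and 1 rose. This was Dhcr7, the reductase of the last step of cholesterol synthesis, with ratios of 0.18, 0.17, 0.13 and -0.54 at 8 weeks and -0.78, -1.06 and -0.70 at 10 days. The arrays did not overlap, although 8-week replicate 4 came near the 10-day arrays. The difference was 0.83 ± 0.20 (SE; adjusted p = 0.0329), with 1.67 in Cy5 and 0.92 in Cy3 (adjusted p = 0.00026), and it was called without 8-week replicate 4 alone among the 7 fits (adjusted p of 0.0634 to 0.16 in the others).

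The median of the cholesterol list was 0.04 in the ratio, 0.79 in Cy5 and 0.83 in Cy3. Among its genes 9 were higher in Cy5 and 15 in Cy3, so the reference differed about as much as the liver channel. Fdps, which makes farnesyl diphosphate, was the largest member by difference, with 3.08 in Cy5 and 1.79 in Cy3, which left 1.31 in the ratio (adjusted p = 0.135). Nsdhl, another sterol synthesis enzyme, was at 1.18 (adjusted p = 0.103).

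**Figure D2:**
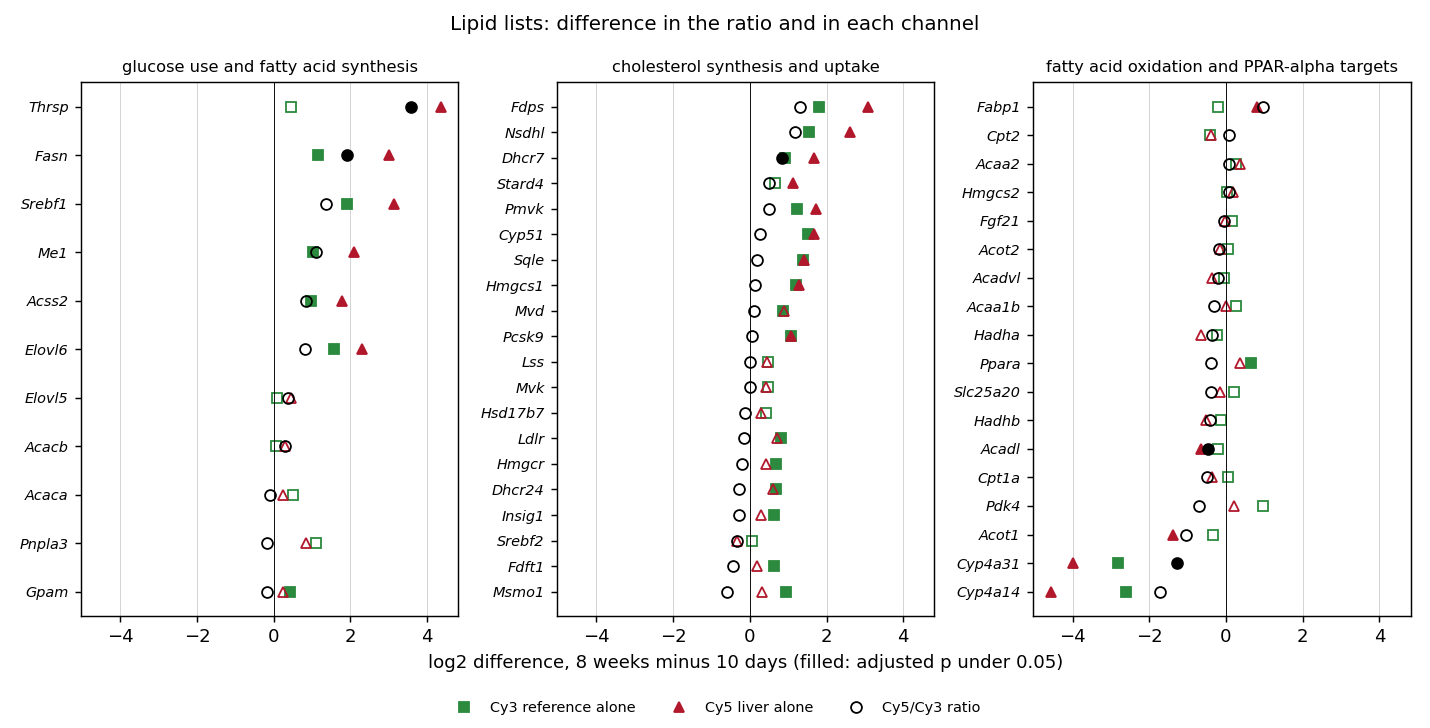
Log2 difference (8 weeks minus 10 days) of each tested member of 3 lipid lists in the Cy5/Cy3 ratio (circles), the Cy5 liver channel alone (triangles) and the Cy3 reference alone (squares), filled where the adjusted p was under 0.05. Thrsp stands out with a large difference in the liver and a small one in the reference, whereas for most cholesterol genes the symbols of both channels lie close together.

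Fatty acid oxidation and PPAR-alpha targets lay on the other side of 0. Of 18 tested genes (24 listed), 2 fell, Acadl and Cyp4a31, and none rose (11.1%). The median was -0.38 in the ratio, and 8 of the 18 genes were lower against 1 higher at an unadjusted p under 0.05 (6.81% and 8.73% of all genes). The median Cy3 difference of the list was -0.001. The median stayed below 0 when the ratios were centred, scaled between arrays or taken from the scanner software, but no member was called under these settings.

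Acadl encodes the long-chain acyl-CoA dehydrogenase of mitochondrial beta-oxidation. Its ratio was 0.40, 0.18, 0.61 and 0.62 at 8 weeks and 0.76, 1.08 and 0.94 at 10 days. The arrays were apart by a small margin. The difference was -0.48 ± 0.11 (SE; adjusted p = 0.0295), with -0.65 in Cy5 and -0.20 in Cy3, where it was not called. The call was lost without 8-week replicate 1 or 2 and without 10-day replicate 2 or 3 (adjusted p of 0.0682 to 0.158), and under median centring (-0.27, adjusted p = 0.472).

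Cyp4a31 and Cyp4a14 encode omega-hydroxylases of fatty acids that PPAR-alpha induces. Cyp4a31 had ratios of 0.07, -1.25, 0.16 and 0.37 at 8 weeks and 1.02, 1.28 and 1.04 at 10 days, a difference of -1.28 ± 0.30 (SE; adjusted p = 0.0311). Its log2 signal fell in both channels, from 11.18, 11.40 and 11.52 at 10 days to 6.28 to 7.93 at 8 weeks in Cy5, and from between 10.59 and 10.70 to between 7.66 and 7.98 in Cy3. The Cy5 difference was -3.99 and the Cy3 difference -2.81 (adjusted p = 2.01e-11), so most of the liver's difference was also in the reference. Its call was lost without 8-week replicate 2 or 3 or any 10-day array (adjusted p of 0.0512 to 0.138) and under median centring (adjusted p = 0.0734).

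Cyp4a14 was at -1.73 ± 0.72 (SE) in the ratio (adjusted p = 0.237), with -0.39 without 8-week replicate 2 (adjusted p = 0.812) and -2.60 without 8-week replicate 4, where it was called (adjusted p = 0.0478). On 8-week replicate 2 the ratio was -3.32, far below the rest: the other measured 8-week arrays had 0.28 and 1.099 and the 10-day arrays 0.87, 1.58 and 0.80. In Cy5 alone it was -4.57 (adjusted p = 0.000767) and in Cy3 alone -2.61 (adjusted p = 4.81e-07). Acot1, an acyl-CoA thioesterase that PPAR-alpha also induces, was at -1.05 (adjusted p = 0.0903).

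Among bile acid genes, 1 of 17 tested rose (22 listed), 5.88% against 1.54% of all genes. The median was -0.14, with 6 lower and 1 higher at an unadjusted p under 0.05. The gene that rose was Cyp2c70, which makes muricholic acids, the bile acids typical of mice. Its log2 ratio was -0.53 and -0.89 on the 2 8-week arrays that measured it and -3.31, -3.81 and -2.96 at 10 days, with no overlap. The difference was 2.65 ± 0.62 (SE), or 6.28-fold (adjusted p = 0.0323), with 3.15 in Cy5 and 0.56 in Cy3 (adjusted p = 0.0417). It lost its call without any 10-day array (adjusted p of 0.0577 to 0.13). With the marked spots kept, the difference was 2.28, and Abcb11, the bile salt export pump, which had too few spots otherwise, was a second called gene of the list (0.63 ± 0.11, SE; adjusted p = 0.00596; Cy5 0.79, Cy3 0.18, not called there). The transporters Slco1a4 and Abcc3 were at -0.75 (adjusted p = 0.115) and -0.67 (adjusted p = 0.104). Slco1a4 was called without 10-day replicate 3, and Abcc3 without 8-week replicate 4.

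Slc10a2, the sodium-dependent bile acid transporter of ileum and bile duct, was not on that list and was the gene with the second largest rise among the 84. Its ratio was -0.11, -0.23, 0.32 and -0.27 at 8 weeks and -2.58, -2.09 and -1.79 at 10 days. Every 8-week array lay more than 1 log2 unit above every 10-day array. The difference was 2.08 ± 0.29 (SE), or 4.23-fold (adjusted p = 0.00138). It was 1.82 in Cy5 (adjusted p = 0.000568) and -0.14 in Cy3, and it was called without any single array.

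Genes that male and female mouse livers express at different levels, a pattern that growth hormone pulses set, showed few calls. Of 16 tested female-predominant genes 1 fell (6.25% against 1.54% of all genes). At an unadjusted p under 0.05, 0 of the 16 were higher and 7 lower (8.73% and 6.81% of all genes). Of 12 male-predominant genes none was called (3 higher and 1 lower at the unadjusted level). The medians were -0.35 and 0.29. The female-predominant list was on average at -0.88 to -0.54 on the 8-week arrays and at -0.30 to -0.09 on the 10-day arrays. Cyp3a16 was the gene that fell, by 1.03 on the log2 scale (adjusted p = 0.0359), but its Cy3 fell as well, by 0.99. Its call was lost without 8-week replicate 2 or 3 or 10-day replicate 3 (adjusted p of 0.053 to 0.136), although 10-day replicate 3 had not measured it. Cyp2b13 was at -1.55 (adjusted p = 0.0674), but at -0.56 in Cy5 alone, -0.30 in the deposited values, -0.16 with the marked spots kept and 0.45 as a mean over its probes. It was called in the fit of the 2 pair-fed groups alone (adjusted p = 0.00786), with a replicate block (0.0124) and after scaling between arrays (0.0431). Cyp2a4 was at -1.78 (adjusted p = 0.0734, but 0.0199 in the fit of the 2 pair-fed groups alone).

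Of the male-predominant genes, Selenbp2 was at 1.75 (adjusted p = 0.0623). It was called without 8-week replicate 4, which had not measured it, and in the fit of the 2 pair-fed groups alone (adjusted p = 0.022). Hsd3b5, a steroid dehydrogenase of male liver, was at 0.68 in the ratio (adjusted p = 0.68), from 2.70 in Cy5 and 2.07 in Cy3 (adjusted p = 2.1e-07). Genes of xenobiotic metabolism were not called (0 of 18; 0 higher and 6 lower at an unadjusted p under 0.05, against 8.73% and 6.81% of all genes; median -0.51). Their mean ratio was -1.02 to -0.67 on the 8-week arrays and -0.45 to -0.23 on the 10-day arrays, and 9 of the 18 did not overlap (16.6% of all genes). Cyp2a5, which oxidises coumarin, was at -1.75 (adjusted p = 0.0969) and Gstm3, a glutathione transferase, at -1.67 (adjusted p = 0.223), with -0.25 in Cy5 alone (adjusted p = 0.843). The fit of the 2 pair-fed groups alone called both in the ratio (adjusted p = 0.022 and 0.00997). Members of the Cyp2a, Cyp2b, Cyp3a, Cyp4a and Gstm families are close in sequence, and their probes may bind more than 1 of them.

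The 12 largest rises among the 84 genes, taken where the arrays did not overlap, ran from 3.59 for Thrsp down to 0.99 for Dbi. Separation of the arrays was thus set by the choice of these genes. Ptpre, a receptor-type tyrosine phosphatase, had ratios of 0.41, 0.52 and -0.53 on the 3 8-week arrays that measured it and -1.11, -1.22 and -0.99 at 10 days. Replicate 4 at 8 weeks lay nearest to the 10-day arrays. The difference was 1.24 ± 0.21 (SE; adjusted p = 0.00649), and no single array removed the call, although another probe of the gene gave 0.04.

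Il1f5, which encodes the antagonist of the interleukin-36 receptor, was at 2.08, 2.32, 1.98 and 1.53 at 8 weeks and 0.94, 0.73 and 0.57 at 10 days. The groups stood clear of each other. The difference was 1.23 ± 0.18 (SE; adjusted p = 0.00251), called without any single array but not when arrays were scaled to each other (adjusted p = 0.205), with 1.77 in Cy5 and 0.36 in Cy3 (adjusted p = 0.435).

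Several metabolic enzymes were among the other rises. Pygl, liver glycogen phosphorylase, which releases glucose from glycogen, was 1.16 higher (adjusted p = 0.0376). Its call was lost under median centring and without any 1 of the 7 arrays, although 8-week replicate 2 had not measured it. Pdhb, a subunit of pyruvate dehydrogenase, was 1.08 higher (adjusted p = 0.0242), and Dbi, which binds and carries acyl-CoA, 0.99 higher (adjusted p = 0.0196). Sult5a1, a sulfotransferase, was 1.20 higher (adjusted p = 0.0196) and Gstm6, a glutathione transferase, 1.02 higher (adjusted p = 0.0146). Alas2, the erythroid enzyme of heme synthesis, was 1.01 higher (adjusted p = 0.0252).

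The rises were completed by Frmd8 at 1.00 (adjusted p = 0.0191) and Ubfd1 at 1.07 (adjusted p = 0.0123), 2 other probes of which gave 0.15 and -0.02. The calls of Pdhb, Dbi, Alas2 and Ubfd1 were lost without 8-week replicate 2 or 3 or 10-day replicate 1 or 2 (adjusted p of 0.0521 to 0.146). Those of Sult5a1 and Frmd8 were lost without 8-week replicate 2 or 10-day replicate 1 or 2 (0.0697 to 0.125), and that of Gstm6 without 10-day replicate 1 or 2 (0.0713 and 0.0951).

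The 12 largest falls among the 28 genes, also chosen for arrays that did not overlap, were led by Bhmt. It encodes betaine-homocysteine methyltransferase, which remethylates homocysteine to methionine with betaine. Its ratio was -0.63, -1.05, -0.64 and -0.34 at 8 weeks and 0.61, 0.86 and 0.14 at 10 days. All 8-week arrays were below 0 and all 10-day arrays above it. The difference was -1.21 ± 0.22 (SE), a 2.31-fold decrease (adjusted p = 0.00916), with -0.94 in Cy5 and 0.04 in Cy3. Without 10-day replicate 2 the adjusted p was 0.073, and under median centring it was 0.067. Bhmt was the 1 of 17 tested genes of the urea cycle and amino acid list (32 listed) that was called, and none of that list rose.

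Abhd2, an alpha/beta hydrolase that acts on lipid esters, was at -0.26, -0.72, -0.67 and -0.50 at 8 weeks and 0.34, 1.05 and 0.42 at 10 days. Again the signs separated the groups. The difference was -1.14 ± 0.21 (SE; adjusted p = 0.00916), and its 2 other probes gave -0.85 and -1.14. Without 10-day replicate 2 the adjusted p was 0.0756. Abhd2 and Nyx were the falls among these 12 that kept their call under median centring. Nyx, nyctalopin, a leucine-rich repeat protein known from retina, was at -0.59 ± 0.09 (SE; adjusted p = 0.00257), and its other probe gave -0.04.

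**Figure D3:**
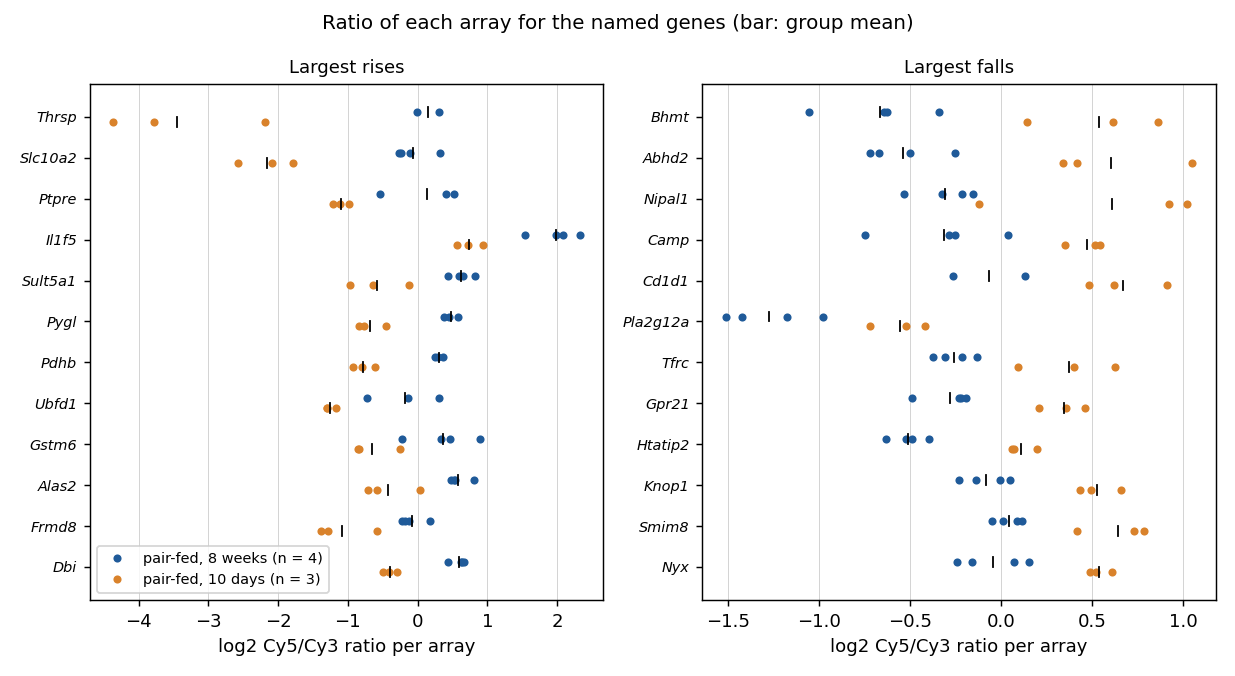
Log2 Cy5/Cy3 ratio on each array (points) and group mean (bars) for the 12 largest rises (left) and the 12 largest falls (right) among the 112 genes, in pair-fed livers at 8 weeks (n = 4, fewer where a spot was left out) and 10 days (n = 3). For Thrsp the 10-day arrays spread from -4.36 to -2.19, and for Nipal1 10-day replicate 3 lies next to the 8-week arrays.

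The other falls were between -0.92 and -0.60. Tfrc, the transferrin receptor through which cells take up iron, had ratios of -0.13, -0.37, -0.22 and -0.31 at 8 weeks and 0.40, 0.63 and 0.09 at 10 days. It was lower at 8 weeks by a difference of -0.63 ± 0.12 (SE; adjusted p = 0.01; 0.0831 without 10-day replicate 2), and it was the 1 called gene of 12 on the iron list. Hamp and Hamp2, the hepcidin genes, were at 0.58 (adjusted p = 0.751) and 0.47 (adjusted p = 0.656).

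Camp, the cathelicidin of neutrophil granules, was at -0.78 (adjusted p = 0.0123), Cd1d1, which presents lipid antigens, at -0.74 (adjusted p = 0.0242) and Pla2g12a, a secreted phospholipase A2, at -0.72 (adjusted p = 0.035). Nipal1, a magnesium transporter, was at -0.92 (adjusted p = 0.0288), Gpr21, an orphan receptor, at -0.63 (adjusted p = 0.0225) and Htatip2 at -0.62 (adjusted p = 0.023). Knop1 was at -0.61 (adjusted p = 0.009) and Smim8 at -0.60 (adjusted p = 0.01). Camp lost its call without 10-day replicate 1 or 2, Cd1d1 without any 10-day array, Knop1 without 10-day replicate 1 and Smim8 without 10-day replicate 2. Nipal1 lost it without 8-week replicate 2 or 3 or 10-day replicate 1 or 2, and Gpr21 and Htatip2 without 8-week replicate 2 or 3 or any 10-day array. Pla2g12a kept it only without 8-week replicate 4.

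The window of Pla2g12a (chr3:129880934-129881233, plus strand) is shown because it holds the rarest of the 5 motifs, a sterol response element (in capitals, read on the opposite strand), 78 bases before the start site:
Pla2g12a: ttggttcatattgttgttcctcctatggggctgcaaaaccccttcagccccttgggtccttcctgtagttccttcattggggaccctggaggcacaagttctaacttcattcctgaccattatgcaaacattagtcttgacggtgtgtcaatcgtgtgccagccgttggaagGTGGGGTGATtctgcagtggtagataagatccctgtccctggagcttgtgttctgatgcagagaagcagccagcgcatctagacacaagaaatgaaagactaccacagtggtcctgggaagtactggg

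Markers of non-parenchymal liver cells were tested as lists. In bulk liver, fewer cells of a type and less RNA per cell cannot be told apart. Of 16 endothelial genes 1 rose (6.25% against 1.54% of all genes). This was Stab1, a scavenger receptor of sinusoidal endothelium, higher by 0.61 ± 0.13 (SE; adjusted p = 0.0225). The list's median was 0.32 in the ratio, 9 of the 16 genes were higher and none lower at an unadjusted p under 0.05 (8.73% and 6.81% of all genes), and the mean ratio was -0.10 to 0.03 on the 8-week arrays and -0.46 to -0.28 on the 10-day arrays. In Cy5 alone 8 were higher and in Cy3 alone 5 higher and 1 lower, with a median Cy3 difference of 0.49. Stab1 itself was 0.53 higher in Cy3 (adjusted p = 0.0268), its other probe gave 0.14, and its call was lost without 8-week replicate 2 or 3 or any 10-day array (0.0546 to 0.0951). Fcgr2b, the inhibitory Fc receptor of sinusoidal endothelium, was at 0.70 (adjusted p = 0.0674), and Tie1, an endothelial receptor kinase, at 0.58 (adjusted p = 0.14).

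Of 21 stellate cell and matrix genes (25 listed) 2 rose (9.52% against 1.54% of all genes). These were Colec11, a collectin, higher by 0.57 ± 0.12 (SE; adjusted p = 0.0154), and Reln, the secreted glycoprotein reelin of stellate cells, by 0.64 ± 0.13 (SE; adjusted p = 0.0179). Colec11 was 0.74 higher in Cy3 too (adjusted p = 0.0262), while Reln was not called there (0.46, adjusted p = 0.0741). Colec11 lost its call without 8-week replicate 2 or 10-day replicate 1, and Reln without these or 10-day replicate 2. The list's median was 0.04. Tgfb1 and Pdgfrb, which drive and mark stellate cell activation, were at 0.48 (adjusted p = 0.0895) and -0.45 (adjusted p = 0.116).

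Of 13 Kupffer cell and macrophage genes none was called in the ratio (2 higher and none lower at an unadjusted p under 0.05, median 0.30). In single channels, 7 were higher in Cy5 and 7 in Cy3 (7.4% and 5.2% of all genes). The complement genes C1qa and C1qc were at 0.60 (adjusted p = 0.319) and 0.34 (adjusted p = 0.548). Of 10 neutrophil genes, Camp fell as described and none was called higher (1 higher and 2 lower at an unadjusted p under 0.05). The median of that list was 0.12, and 7 of the 10 had a positive difference. Of 7 skeletal muscle genes 1 rose, Tnnt3, a fast muscle troponin, by 1.06 (adjusted p = 0.023), with 0.88 in Cy3 (adjusted p = 0.017). Its other probe gave -0.08, and the call was lost without 8-week replicate 2 or 3 or any 10-day array. Of 7 erythroid genes Alas2 rose, and the haemoglobin genes Hba-a1 and Hbb-bt were at 0.93 (adjusted p = 0.0739) and 0.70 (adjusted p = 0.145). The mean ratio of the erythroid list was -0.17 to 0.10 at 8 weeks and -0.42 to -0.34 at 10 days. Its median difference was -0.013, and only 3 of its 7 genes, those named here, had a positive difference. The part of other cell types in the liver results was not tested.

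Of the interferon, endoplasmic reticulum stress, replication and antioxidant lists, each held 1 called gene. Tap1, the peptide transporter of antigen presentation, was the 1 of 24 interferon-stimulated genes that rose, by 0.85 (adjusted p = 0.0361), with 0.95 in Cy3 (adjusted p = 0.0137). Edem1, which feeds misfolded glycoproteins into degradation, was the 1 of 19 endoplasmic reticulum stress genes, higher by 0.48 (adjusted p = 0.035) in the ratio and at 0.49 in Cy5 alone, where it was not called (adjusted p = 0.138). The median of that list was 0.39, and 12 of the 19 did not overlap (16.6% of all genes). At an unadjusted p under 0.05, 2 of the 19 were higher and 1 lower (8.73% and 6.81% of all genes), and none was called in Cy5 alone. Tap1 and Edem1 kept the call without 8-week replicate 4 and in no other of the 7 fits. Rrm2, a ribonucleotide reductase subunit needed for DNA synthesis, was the 1 of 25 replication and mitosis genes, higher by 0.62 (adjusted p = 0.029). Rrm2 was well above background on 1 of the 3 10-day arrays, was at 0.16 in Cy5 alone (adjusted p = 0.662), and lost its call without 8-week replicate 1 or 2 or 10-day replicate 2 or 3. Srxn1, which reduces hyperoxidised peroxiredoxin, was the 1 of 16 antioxidant genes, lower by a difference of -0.80 in the ratio (adjusted p = 0.045) and at -0.20 in Cy5 alone (adjusted p = 0.838). It was measured on 2 arrays of each group, and the 3 fits that could be made left out arrays that had not measured it. There the difference stayed at -0.80 and the call was lost (adjusted p of 0.0564 to 0.079).

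Acute phase genes were not called (0 of 18; 0 higher and 1 lower at an unadjusted p under 0.05), and 1 array stood apart in their levels. Saa3, a serum amyloid A gene that inflammation induces, had ratios of -1.51, -0.89, -1.18 and -5.43 at 8 weeks and -4.32, -4.65 and -5.06 at 10 days. On 3 of the 8-week arrays the ratio lay above all 10-day arrays, and on 8-week replicate 4 it lay below them. The difference was 2.42 ± 1.19 (SE; adjusted p = 0.331). Saa2 also had its lowest ratio on 8-week replicate 4, with -1.56, -0.93, -1.52 and -5.32 at 8 weeks, -4.26, -4.60 and -4.73 at 10 days and a difference of 2.20 (adjusted p = 0.358).

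Mt1 and Mt2 encode metallothioneins, which bind zinc and copper and respond to metals and glucocorticoids. Mt1 had ratios of -3.97, -2.92, -3.24 and -4.26 at 8 weeks and -1.45, -2.36 and -2.16 at 10 days. The arrays did not overlap, and the difference was -1.60 ± 0.56 (SE; adjusted p = 0.145, but 0.0403 in the fit of the 2 pair-fed groups alone). In Cy5 alone it was -1.48 (adjusted p = 0.00253), with -0.024 in Cy3. Mt2 was at -1.45 in the ratio (adjusted p = 0.253) and -1.47 in Cy5 (adjusted p = 0.0399). In the fit over the 6 groups, none of the 7 genes of the metallothionein list passed the test in the ratio (1 higher and 2 lower at an unadjusted p under 0.05, median -0.057).

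The core clock, clock output and gluconeogenesis and fasting lists held no called gene in the ratio. The lists of fatty acid synthesis and oxidation, which also respond to feeding, held called genes as given above. Of 15 core clock genes 1 was higher and 2 lower at an unadjusted p under 0.05, of 9 clock output genes 0 higher and 1 lower, and of 10 gluconeogenesis and fasting genes 1 higher and 0 lower. Ciart and Per3, repressors of the clock, were at -0.61 (adjusted p = 0.13) and -0.35 (adjusted p = 0.186), and G6pc, glucose-6-phosphatase, at 1.32 (adjusted p = 0.24).

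Cidec, the lipid droplet protein that the series title names as FSP27, was not called. Its log2 ratio was -0.73, -2.91, -2.51 and -1.83 at 8 weeks and -1.52, 0.23 and -0.82 at 10 days, and the arrays overlapped. The difference was -1.29 ± 0.72 (SE; adjusted p = 0.407). In Cy5 alone it was 0.11 (adjusted p = 0.95), while in Cy3 it was 1.497 higher (adjusted p = 0.0124), so the sign of the ratio came from the reference. The lipid droplet list had no called gene (0 of 20; 0 higher and 3 lower at an unadjusted p under 0.05), and 7 of its genes were higher in Cy3.

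H4c4, a histone H4 gene chosen because it was the 1 called gene with an opposite call in Cy3, was at 0.05, 0.08, 0.02 and -0.08 at 8 weeks and 0.57, 0.61 and 0.40 at 10 days. The difference was -0.51 ± 0.13 (SE; adjusted p = 0.0479). In Cy5 alone it was 0.13 (adjusted p = 0.77), and in Cy3 0.61 (adjusted p = 0.0497), and leaving out any 1 of the 7 arrays removed the call.

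The 4 ethanol groups put the levels of the leading genes in context, as a description. Thrsp had a mean ratio of 0.15 in 8-week and -3.44 in 10-day pair-fed livers, against 0.54 after ethanol for 8 weeks, -0.15 after ethanol for 10 days with 1 binge, -0.42 after ethanol for 8 weeks with 1 binge and -2.48 after ethanol for 8 weeks with multiple binges. The 10-day pair-fed group was thus the lowest of the 6 by its mean, with a range that overlapped that of the multiple-binge group. Cyp2c70 had -3.36 in 10-day pair-fed livers and between -0.93 and 0.32 elsewhere, and Ptpre -1.102 there and between -0.38 and 0.76 elsewhere. Bhmt was highest there, at 0.54, with -0.67 to -0.10 in the other groups. Slc10a2 had -2.15 there and -1.49 after ethanol for 8 weeks, with array ranges that overlapped. Il1f5 had 1.98, 1.76 and 1.98 in the 3 groups of the scan that held the 8-week pair-fed arrays, 0.74 and 0.76 in the 10-day groups of the other scan, and 0.64 in the 8-week group with multiple binges, which was scanned apart from both. Its mean was thus high in the groups of 1 scan and low in the groups of the other scans, a group fed for 8 weeks among them; the part of the scan was not tested.

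**Figure D4:**
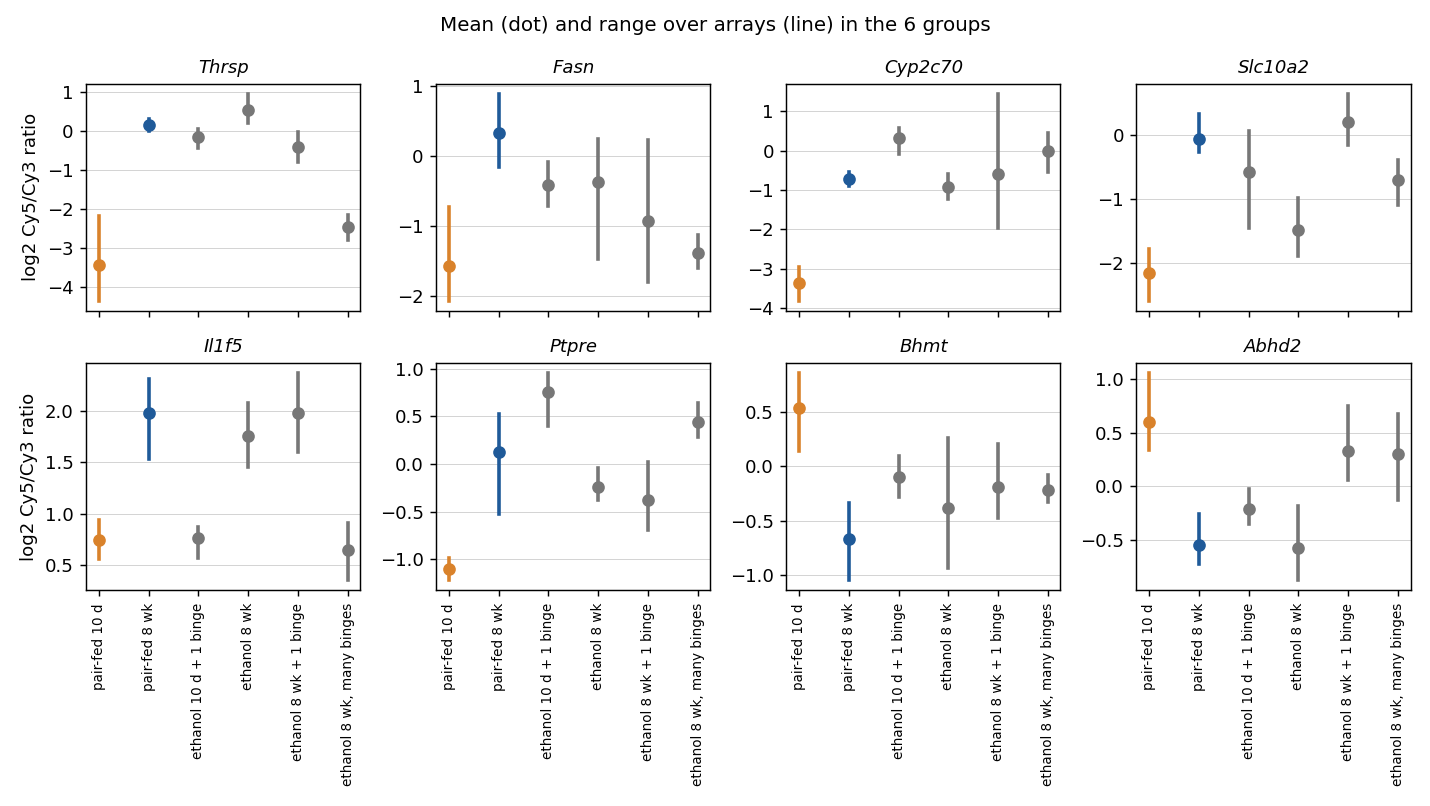
Mean log2 Cy5/Cy3 ratio (dot) and the range over arrays (line) of 8 genes in the 6 groups of the series, with 10-day pair-fed livers in orange, 8-week pair-fed livers in blue and the ethanol groups in grey. For Cyp2c70 and Ptpre the 10-day pair-fed range lies below the ranges of the other 5 groups.

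Livers of mice fed ethanol and given 1 binge (5 g/kg) were also available at 8 weeks (5 samples) and 10 days (3 samples). These 8 arrays share none with the pair-fed arrays, but they have the same split of scans and lie in part on the same slides. Length of feeding, scan and slide cannot be told apart there either. In that comparison 2183 of 15544 genes (14%) were called, 1151 higher (7.4%) and 1032 lower (6.64%), with 1109 called without replicate 1 and 1332 without replicate 2 of the 10-day group. Across genes the difference in the ratio correlated with that of the pair-fed livers at r = 0.14, and the difference in Cy3 alone, where 713 genes (4.59%) were called in binge livers, at r = 0.66. Of the 84 genes that rose in pair-fed livers, 36 rose in the binge livers, 13 fell and 35 were not called, and of the 28 that fell, 8 fell, 2 rose and 18 were not called. The median of the 84 was 0.76 in pair-fed and 0.26 in binge livers; the genes were chosen by their pair-fed difference, which by itself makes the first value the larger.

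The test of the difference between both comparisons called 523 genes (3.36%), among them 34 of the 84 and 8 of the 28. The pair-fed difference that chose these genes is a term of this test, so nothing is read from their shares, and the p-values of single genes below carry the same choice. Thrsp and Fasn were at -0.28 and -0.51 in binge livers (adjusted p = 0.66 and 0.469), and the difference from the pair-fed value passed the test for both (adjusted p = 0.000468 and 0.0335). Ptpre, at 1.24 in pair-fed livers, was at -1.14 in binge livers (adjusted p = 0.000645; difference of both, adjusted p = 4.43e-05). Cyp4a31 was at 2.20 in binge livers (adjusted p = 0.000146; difference of both, adjusted p = 4.43e-05). Il1f5 rose in both, by 1.23 and 1.22, and Slc10a2 was at 0.78 in binge livers (adjusted p = 0.0578). Tfrc, Knop1 and Nyx fell in both, with -0.45, -0.42 and -0.41 in binge livers (adjusted p = 0.0113, 0.0106 and 0.00259).

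**Figure D5:**
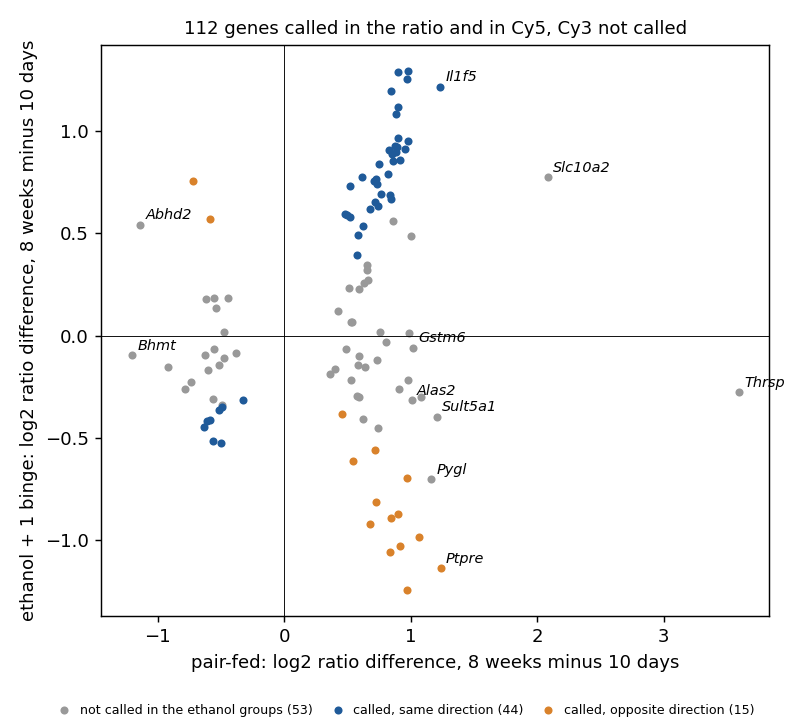
Log2 ratio difference (8 weeks minus 10 days) in pair-fed livers (x axis) and in livers after ethanol and 1 binge (y axis) for the 112 genes called in the ratio and in Cy5 but not in Cy3. Blue points were called in the same direction in the binge livers (36 rises and 8 falls), orange points in the opposite direction (13 and 2) and grey points were not called (35 and 18); Thrsp lies far right near 0 on the y axis.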

How the data were processed

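Liver RNA (Cy5) and a reference RNA (Cy3) were measured on 24 Agilent arrays. Per the file headers, the deposited intensity of each spot and its local background were read by Feature Extraction 11.5.1.1 (median signals), which also made the deposited log10 ratio from processed signals. The authors' deposited log2 table followed that ratio on the 7 arrays with a slope of 1.00 and r of 0.951 to 0.9996 over probes; how it was made is not given in the sources used here. Here, non-uniform and outlier spots (2.71% to 6.95% of the spots on the 7 arrays) were left out, background was corrected with normexp (offset 50), arrays were normalized by loess without scaling between arrays, and 1 limma fit (limma 3.58.1, R 4.3.3, statmod 1.5.0) over the 6 groups gave each difference, its SE and Benjamini-Hochberg adjusted p (threshold 0.05). Single channels were quantile-normalized after normexp. Probes that were well above background in the liver channel on 3 arrays or more were kept (36620 of 41174), and 22944 of the kept probes had 1 gene name. The brightest of these stood for a gene, tested with at least 2 arrays in both groups. The number of arrays limits the precision.

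Gene names were assigned by matching the accession that the array gives for each probe to a RefSeq gene list. The members and the 31 pathway and 12 cell type lists were chosen with earlier results of these data known, and 1 list member is not reported here. Named genes are Cidec, the 12 largest rises and falls among genes called in the ratio and in Cy5 alone but not in Cy3, without overlap and well above background on the arrays of the higher group, genes with an opposite call in Cy3, and, for each list, up to 4 called genes and up to 2 others with large differences. The scripts were tested on simulated data.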

Additional observations from a re-analysis of the deposited data

Results flagged for a closer look

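With 4 8-week arrays, 53 of the named genes could be searched for an array far from the others, and 7 had one; chance gives about 1 in 20. Replicate 4 stood apart for Saa3 (-5.43, others -1.51 to -0.89), Saa2 (-5.32, others -1.56 to -0.93), Dhcr7 (-0.54, others 0.13 to 0.18), Slco1a4 (0.24, others -0.13 to -0.088) and Alas2 (0.81, others 0.48 to 0.53). Replicate 1 stood apart for Me1 (0.74, others -0.044 to 0.052) and replicate 2 for Gpr21 (-0.49, others -0.23 to -0.19).

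For 30 named genes the difference between 8 weeks and 10 days in the ethanol and binge livers was not that of the pair-fed livers, by limma's test of the difference between both (Benjamini-Hochberg adjusted p). Most named genes were chosen for their pair-fed difference, which is a term of this test, so a departure is partly built in by the choice. The values are log2, binge minus pair-fed.

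Among lipid genes these were Thrsp (-3.87, adjusted p = 0.000468), Srebf1 (-3.37, 0.000363), Fasn (-2.42, 0.0335), Cyp4a14 (5.29, 0.00213), Cyp4a31 (3.48, 4.43e-05) and Acot1 (1.74, 0.0249). Cyp4a14, Srebf1 and Acot1 were not called in pair-fed livers. Among bile acid and sex-dependent genes these were Cyp2c70 (-3.57, 0.0129), Hsd3b5 (-4.08, 0.0117), Selenbp2 (-3.32, 0.00308) and Cyp3a16 (1.34, 0.0249).

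Among the other large rises these were Ptpre (-2.38, 4.43e-05), Ubfd1 (-2.05, 0.000112), Pygl (-1.86, 0.0122), Sult5a1 (-1.60, 0.0108), Pdhb (-1.39, 0.0158), Alas2 (-1.32, 0.0178) and Gstm6 (-1.08, 0.0349). Among the falls these were Abhd2 (1.68, 0.000884), Pla2g12a (1.47, 0.000543), Bhmt (1.11, 0.0434) and Htatip2 (0.80, 0.0178).

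Among cell type and response genes these were Tnnt3 (-2.10, 0.000241), Tap1 (-2.07, 8.86e-05), Fcgr2b (-1.81, 0.000189), Edem1 (-0.96, 0.000689), Rrm2 (-0.89, 0.0109), Stab1 (-0.84, 0.0107), Reln (-0.79, 0.0156), Colec11 (-0.78, 0.0061) and Ciart (1.17, 0.0185).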

How the results depend on the processing

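The count of 240 genes called in the ratio was 1502 in Cy5 alone, 378 without background subtraction, 664 with a replicate block and 734 with array weights, and 22 to 420 when pair-fed arrays were left out in turn. The 112 genes became 172 without background subtraction, 178 with the marked spots kept, 341 with a replicate block and 292 with array weights (12 to 244 with an array left out). In the fit of the 2 pair-fed groups alone the Cy5 count fell to 611 from 1502 and the Cy3 count to 52 from 976; with an array left out they were 878 to 1538 and 411 to 1241. The binge count was 1109 to 2711 with an array of those groups left out. Same-numbered samples of the 2 pair-fed groups did not deviate together (correlations of -0.252, -0.0584 and -0.0874), so pairing by number between these groups was not seen. Within a scan, however, some same-numbered arrays of different groups shared a slide. Replicate 2 of the 8-week pair-fed, ethanol and 1-binge groups, for example, lay on slide 2. The block can thus take up slide in part, and what raised the counts under it was not tested.

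Scaling changed the split. Arrays scaled to each other gave 197 higher and 63 lower genes, the scanner software's log ratio 175 and 69, and the deposited log2 values 215 and 92; with the 2 pair-fed groups alone there were 151 and 51. Of 39 named called genes, the call held for 31 on the deposited values, 27 on the ratio of the scanner software, 26 with the 2 groups alone, 25 after scaling between arrays and 22 after median centring. The sign turned for Cyp2b13 (0.45 as a mean over probes) and, in Cy5 alone, for H4c4 (0.13) and Cidec (0.11). The cause of these changes was not tested. The number of arrays limits all counts.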

Other observations

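The other lists held no called gene in the ratio, and their counts at an unadjusted level are given for completeness beside 8.73% of all genes higher and 6.81% lower. At an unadjusted p under 0.05 in limma's test, 2 of 14 cytosolic heat shock genes, 3 of 12 genes of the growth hormone axis and 1 of 9 perinatal liver genes were higher, with none lower. Of 12 growth arrest genes 3 were higher and 1 lower, of 17 immediate early genes 3 higher and 1 lower, of 19 complement and coagulation genes 1 higher and 1 lower, and of 21 cytokine, chemokine and adhesion genes 2 higher and 1 lower.

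Of 9 genes of alcohol and aldehyde metabolism 1 was higher and 3 lower, of 8 pericentral hepatocyte genes 1 higher and 2 lower, and of 4 periportal hepatocyte genes and 25 respiratory chain genes none in either direction. Of 6 class II antigen presentation genes none passed in the ratio, while 3 were higher in Cy5 alone and 3 in Cy3 alone. Among cell type markers, 1 of 10 T and NK cell genes was higher and 1 lower, 1 of 8 B and plasma cell genes higher, 2 of 8 cholangiocyte genes lower, 2 of 6 adipocyte genes higher and 1 of 8 pancreatic acinar genes lower.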
